A study of Paralichthys olivaceus with 22 samples.

Results

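The members described here are 37 probes whose normalized signal at 12 h after an E. tarda FKC preparation was lower than after PBS. The means differed by 2 or more on the log2 scale, dim signals included, while their mean level at 6 h lay near that of PBS. They were chosen from 14052 probes that carry names of JFC contigs, out of 14481 probes on the array. A member had a difference between E. tarda FKC and PBS of -2 or less on the log2 scale at 12 h and of -0.5 to 0.74 at 6 h. Its difference between S. iniae FKC and PBS at 12 h was under 1, and it was well above background on all 4 PBS arrays of 12 h. The values at 12 h and 6 h after E. tarda FKC and at 12 h after S. iniae FKC therefore chose the members, and those differences are given as a description without a test. All 37 members passed the filter for the test on low signals, as the rule requires detection in PBS.

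Kidney RNA of Japanese flounder, Paralichthys olivaceus, was hybridised to 22 arrays, with 1 sample on each. Fish received E. tarda FKC (3 arrays at 6 h and 4 at 12 h), S. iniae FKC (3 and 4 arrays) or PBS, the control (4 arrays at each time). The labels give no strain, age or genotype of the fish, no dose and no expansion of FKC, and do not say whether each sample is a separate fish. The p-values therefore reflect variation among these samples only, and some of it may be technical.

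The kidney of bony fishes holds blood-forming and immune tissue beside the tubules that form urine, and it is a usual organ for following responses to bacteria in flounder. Edwardsiella tarda is a Gram-negative bacterium that can live inside phagocytes, and Streptococcus iniae is a Gram-positive one. Both cause disease in farmed flounder. The files name the probes by contig and give no gene. In the RefSeq table of assembly ASM2471397v2, 0 of all names on the array were matched, and so 0 of the 37 members. No function, cell type or pathway is therefore assigned to any member. In RNA of a whole organ, fewer cells of a type and less RNA per cell cannot be told apart.

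Levels are log2 processed signals minus the 75th percentile of the array, so that 0 is the level of that percentile. Each array had 8084 to 10666 probes well above background, and precision is limited by the number of arrays. E. tarda FKC replicate 1 of 12 h had the fewest such probes, though PBS replicate 4 of 12 h was close with 8195. The E. tarda array stood apart in its 75th percentile of signal, the lowest at 209, where the others had 245 to 470. It also had 62 flagged spots, where the others had 4 to 27. On it 17 members were well above background, against 23 to 29 on the other E. tarda arrays of 12 h. Slide 1 held the FKC arrays of 6 h, slide 2 those of 12 h, and slide 3 the PBS arrays of both times. Slide and treatment cannot be told apart in a comparison with PBS, whereas E. tarda and S. iniae FKC of the same time share a slide. On those slides every E. tarda array lay in row 1 and every S. iniae array in row 2. Row and preparation therefore cannot be told apart between them. At 12 h, 6 spike-in probes, which measure added control RNA, differed from PBS by -0.31 to -0.17 on the log2 scale for E. tarda FKC, and for S. iniae FKC by -0.34 to -0.23. Between the preparations they differed by -0.03 to 0.09 at 12 h. The same probes differed more widely at 6 h, by -0.95 to -0.004 from PBS for E. tarda FKC, with a median of -0.29. For S. iniae FKC at 6 h they differed from PBS by -0.52 to 0.14.

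The difference between E. tarda FKC and PBS at 12 h ran from -3.25 to -2.04 over the members, with a median of -2.29 or 4.89-fold. The median of all 11066 probes tested was -0.12. Without E. tarda replicate 1 the median over the members was -2.30, 28 of the 37 were still at -2 or less, and the highest stood at -1.31. In 10 members the difference was -2.5 or less, and 18 lay above -2.25, close to the limit. The 2 members nearest to the limit stood at -2.04 and -2.05, and the 2 nearest probes outside it at -1.993 and -1.992. At 6 h the members nearest to the lower limit stood at -0.492, against -0.509 and -0.512 for the nearest probes outside, and the upper limit lay between 0.63 and 1.05. The bound on S. iniae FKC left out 0 probes, and the demand for detection in PBS left out 49. Under the normexp background correction (offset 50) followed by quantile normalization, the median over the 37 members was -1.17 and 8 probes met the rule, and with arrays scaled to their median 24 did. Quantile normalization without normexp gave a median of -2.17, and 32 probes met the rule. It started from the processed signals, whereas normexp was run on the median signals of spot and background. The 2 settings therefore differ in more than the normexp step.

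**Figure D1:**
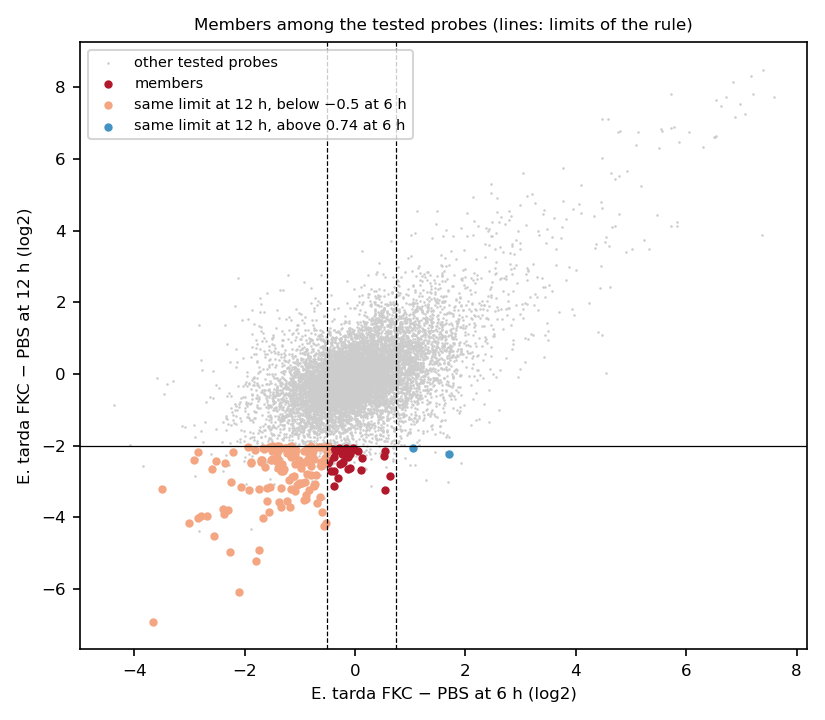
Difference of mean log2 levels between E. tarda FKC and PBS at 6 h (horizontal) and 12 h (vertical), 1 point per tested probe. The 37 members lie under the solid line at -2 and between the dashed lines at -0.5 and 0.74, beside 125 probes that were as low at 12 h and already below -0.5 at 6 h and 2 probes above 0.74.

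The members differed widely in brightness. Their mean level in PBS at 12 h ran from -3.01 to 9.27, with a median of -1.14, which placed the lowest at the 28.4th, the middle one at the 53.3rd and the highest at the 99.9th percentile of the tested probes. Above the level of 0 lay 10 members, and all 10 were well above background on each E. tarda array of 12 h. Of the other 27, 6 were. The limit of the rule holds the difference at 12 h at -2 or less in both sets, and the medians were -2.15 in the brighter and -2.31 in the dimmer members, most of which had dim E. tarda spots.

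The dim end of the group carries bounds rather than sizes. After E. tarda FKC at 12 h, 16 members were well above background on all 4 arrays, 14 on 1 to 3 arrays and 7 on none. Leaving out replicate 1, 22 members were well above background on all 3 remaining arrays. In the 16 fully measured members the difference ran from -3.12 to -2.05 with a median of -2.20, or 4.61-fold. For the 7, the level in PBS was set against the lowest signal well above background on each E. tarda array, or the probe's own signal where that was higher. By this measure PBS was at least 1.79-fold to at least 4.32-fold higher, and in 6 of the 7 this bound was under the 4-fold of the rule. The bound is approximate, since a spot above that lowest signal was not always well above background. JFC03489_1_code read -3.21 and -3.82 on replicates 1 and 3 without being so, where the lowest such signals were -3.35 and -3.89. The spread between E. tarda arrays of 12 h was wide in the members, with a median SD of 0.55 against 0.35 over all tested probes, while in PBS at 12 h it was 0.24 against 0.28. It was alike in the 16 fully measured members (median SD 0.55) and in the 21 dim on 1 or more E. tarda arrays (0.57).

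**Figure D2:**
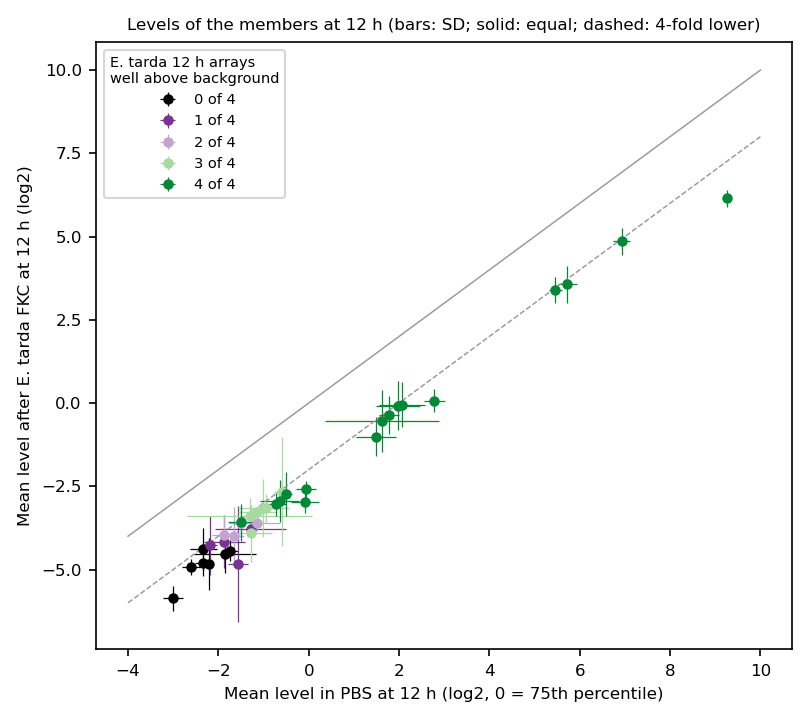
Mean log2 level of each member after E. tarda FKC at 12 h (vertical) against PBS at 12 h (horizontal), with SD bars (n = 4 arrays each) and coloured by the number of E. tarda arrays that were well above background. The 16 members measured on all 4 arrays reach from -1.49 to 9.27 in PBS, and those not measured on any lie at the lower left.

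Arrays of E. tarda FKC at 12 h lay below every PBS array of that time in 36 of 37 members, against 18.9% of all tested probes, a count that the rule itself favours. Without replicate 1 it was again 36, against 24.8%. On the 4 arrays the median of the members was -3.46 to -3.21, against -1.14 to -0.81 in PBS at 12 h. All 37 members were below their PBS mean on each of the 4 arrays. The difference was -1 or less in 36, 34, 37 and 37 of them on replicates 1 to 4, so that replicate 2 held 3 of the 4 exceptions.

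**Figure D3:**
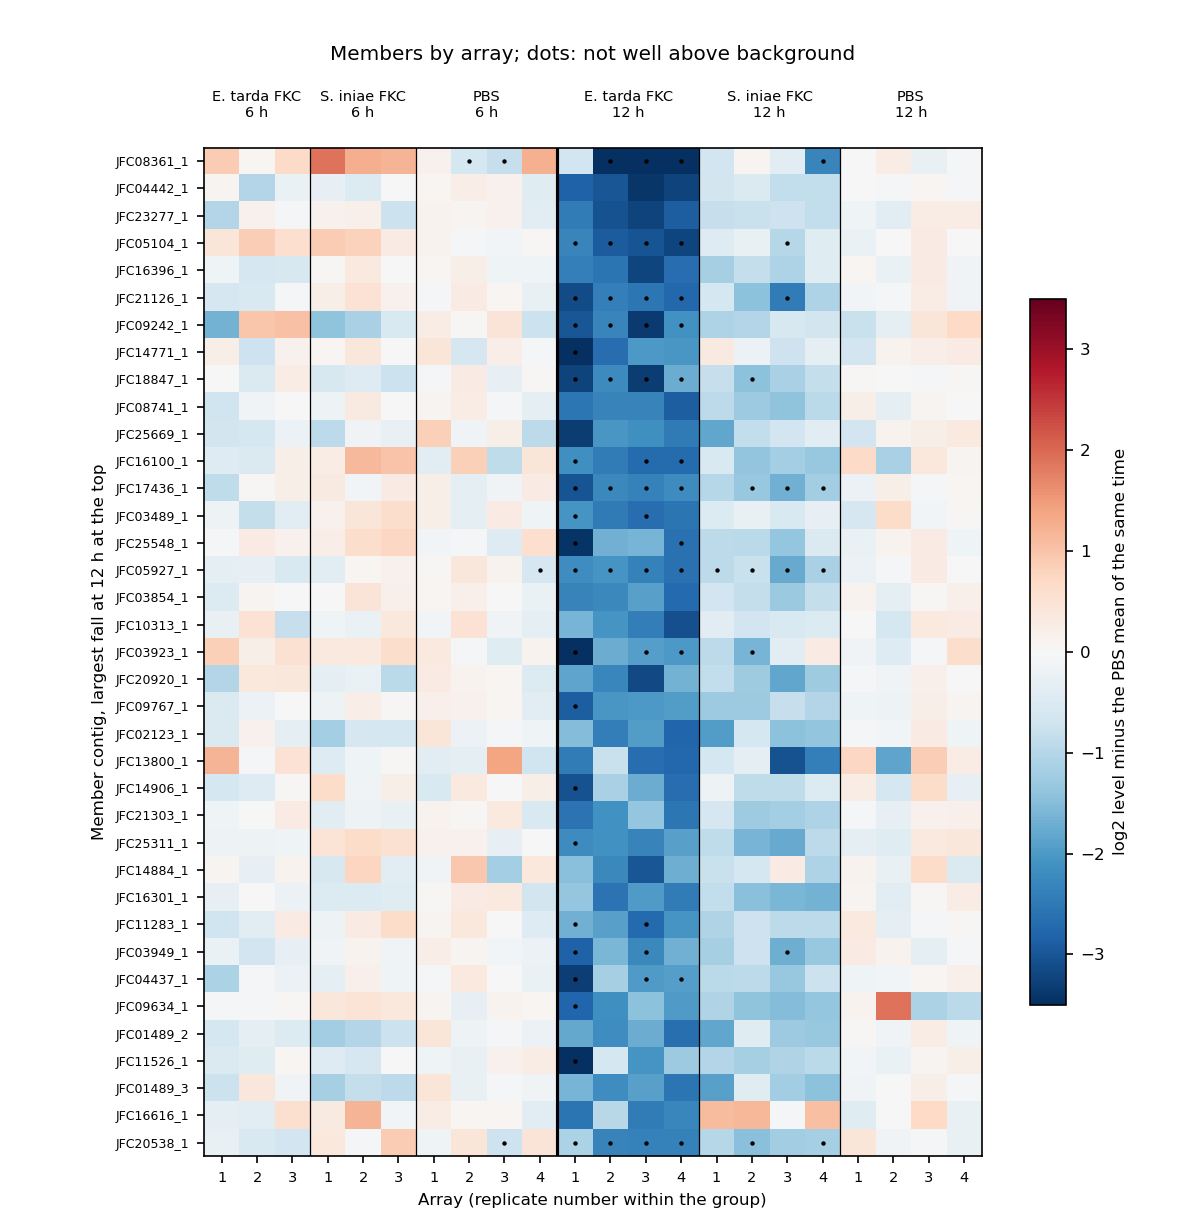
Log2 level of the 37 members (rows) on 22 arrays (columns, by group and replicate number) minus the PBS mean of the same time. Blue is lower and red higher than PBS, the darkest blue also holds differences beyond the scale, and a dot marks a spot that was not well above background. The 4 E. tarda columns of 12 h are blue in every row, the S. iniae columns of 12 h are mostly paler blue, and the columns of 6 h are mixed.

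The 2 members with the largest measured differences were probe CUST_6001_PI426483990 of contig JFC04442_1_code and probe CUST_5681_PI426483990 of contig JFC23277_1_code. JFC04442_1 was the brightest member. At 12 h its level was 6.44, 6.28, 5.85 and 6.03 with E. tarda FKC, 8.63, 8.76, 8.41 and 8.39 with S. iniae FKC, and 9.26, 9.22, 9.35 and 9.24 with PBS. The 3 groups did not overlap, and the E. tarda arrays stood well apart from the other 8. The mean was 6.15 ± 0.26 after E. tarda FKC and 9.27 ± 0.06 with PBS (SD, n = 4 each), a difference of -3.12 or 8.67-fold. At 6 h the arrays read 9.16, 8.04 and 8.84 with E. tarda FKC, 8.76, 8.59 and 9.06 with S. iniae FKC, and 9.11, 9.30, 9.20 and 8.62 with PBS. These 3 groups overlapped.

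JFC23277_1 lay near the 75th percentile of the array in PBS. At 12 h it read -2.53, -3.13, -3.30 and -2.95 with E. tarda FKC, -0.88, -0.84, -0.81 and -0.93 with S. iniae FKC, and -0.23, -0.43, 0.18 and 0.19 with PBS. Here too the 3 groups were separate, with S. iniae FKC nearer to PBS. The difference from PBS was -2.91 for E. tarda FKC, or 7.50-fold, and -0.79 for S. iniae FKC. At 6 h the E. tarda FKC arrays averaged -0.50 ± 0.64 and the S. iniae FKC arrays -0.34 ± 0.54 (SD, n = 3 each), and PBS averaged -0.20 ± 0.24 (SD, n = 4). In each FKC group of 6 h 1 array lay low, at -1.24 for E. tarda FKC and at -0.96 for S. iniae FKC.

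Names with the same JFC number were counted as 1 contig, from the names alone. On that count the 37 members came from 36 contigs. The only contig with 2 members was JFC01489, chosen for mention after its values were seen. Its probes CUST_2403_PI426483990 (JFC01489_2_code) and CUST_5405_PI426483990 (JFC01489_3_code) were among the 4 brightest members. JFC01489_2 read 5.13, 4.77, 5.21 and 4.30 at 12 h with E. tarda FKC, 5.11, 6.50, 5.66 and 5.60 with S. iniae FKC, and 6.97, 6.81, 7.18 and 6.77 with PBS. JFC01489_3 read 3.84, 3.27, 3.55 and 2.91 with E. tarda FKC, 3.57, 5.04, 4.24 and 4.04 with S. iniae FKC, and 5.33, 5.45, 5.67 and 5.39 with PBS. In both, the arrays of either preparation lay below all PBS arrays, and the preparations overlapped each other. The third probe of the contig, JFC01489_1_code, missed the limit with a difference of -1.76 at 12 h after E. tarda FKC and of -1.07 after S. iniae FKC.

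Another bright member, JFC02123_1_code (CUST_5826_PI426483990), ran close to these probes and was also singled out after its values were seen. It read 4.22, 3.32, 3.77 and 2.94 at 12 h with E. tarda FKC, 3.78, 5.12, 4.30 and 4.36 with S. iniae FKC, and 5.69, 5.62, 6.02 and 5.58 with PBS. As in JFC01489, replicate 4 was the lowest E. tarda array, and replicate 1 was the lowest and replicate 2 the highest S. iniae array. Deviations from the group means over the 22 arrays correlated at 0.929 with JFC01489_3 and at 0.921 with JFC01489_2, against 0.875 between the 2 probes of the contig. The median over the 666 pairs of members was 0.092, and all pairs share the same arrays. Whether the 2 contigs report separate transcripts was not tested. JFC08741_1_code was most like the group as a whole, with a correlation of 0.97 between its level and the mean of the other 36 members over the 22 arrays, where the members had 0.437 to 0.97 and a median of 0.87. That measure follows the differences between groups which the rule used.

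At 6 h after E. tarda FKC the members lay between -0.49 and 0.63 of PBS, with a median of -0.22, against -0.01 for all tested probes. The difference was below 0 in 30 of 37, within 0.25 of 0 in 18 and at 0.5 or above in 4. The E. tarda arrays lay below all PBS arrays of 6 h in 2 members and above them in 1, against 16.9% and 17.5% of all tested probes, in a contrast that the rule narrows. Single arrays differed, with the median difference from PBS at -0.31, -0.17 and 0.03 on replicates 1 to 3. Single members ran from -1.67 to 1.19, from -1.02 to 0.98 and from -0.81 to 1.04 on these arrays, so the limits at 6 h hold for means only. From 6 h to 12 h the level after E. tarda FKC was lower in all 37 members, by a median of -1.95 on the log2 scale, across slides.

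S. iniae FKC at 12 h was lower than PBS in 36 of 37 members as well, by a smaller amount. The differences ran from -1.60 to 0.81 with a median of -1.02 or 2.02-fold, against -0.09 over all tested probes, and 19 members were at -1 or less. Under normexp with quantile normalization the median was -0.51, and under quantile normalization alone -0.96. The PBS arrays are the same as in the E. tarda comparison, so the choice of members with high PBS levels enters this value. S. iniae arrays lay below every PBS array in 24 members, against 10.7% of the tested probes. Only 28 of the 37 members were well above background on all 4 S. iniae arrays of 12 h, so dim spots enter these values. In the 16 members well above background on all 22 arrays the median was -0.98, and 11 lay below every PBS array. The 4 S. iniae arrays gave median differences of -0.89, -0.85, -1.18 and -0.94, so that no single array carried the shift, and replicate 3 was lowest. Taken per member, the S. iniae difference was a median of 0.445 of the E. tarda one. The rule holds the E. tarda difference at -2 or less, which favours a ratio under 1. In 21 members the ratio also rests on at least 1 dim E. tarda spot.

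Between the preparations, on the shared slide, all 37 members were lower after E. tarda FKC at 12 h. The difference ran from -2.86 to -0.56 with a median of -1.38 or 2.61-fold, against -0.06 for all tested probes. The median was -0.62 under normexp with quantile normalization, -1.33 under quantile normalization alone and -1.23 without E. tarda replicate 1. E. tarda arrays lay below every S. iniae array in 24 members, against 10.4% of the tested probes, and without replicate 1 in 29, against 15.4%. Among the 16 fully measured members the median was -1.39, with no overlap in 10. Both groups were used in choosing the members, and these values are a description.

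The largest of these differences belonged to JFC16616_1_code (CUST_130_PI426483990), which was also the only member not lower after S. iniae FKC than in PBS, and was named for this after its values were seen. At 12 h it read -0.57, 1.01, -0.47 and -0.31 with E. tarda FKC, 3.07, 3.12, 1.89 and 3.02 with S. iniae FKC, and 1.56, 1.96, 2.65 and 1.70 with PBS. The E. tarda arrays were below all others. The S. iniae arrays overlapped PBS through replicate 3, the lowest of them, with a difference of 0.81. At 6 h the levels were 1.82, 1.76 and 2.69 with E. tarda FKC, 2.45, 3.33 and 2.03 with S. iniae FKC, and 2.38, 2.20, 2.21 and 1.73 with PBS, all overlapping.

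**Figure D4:**
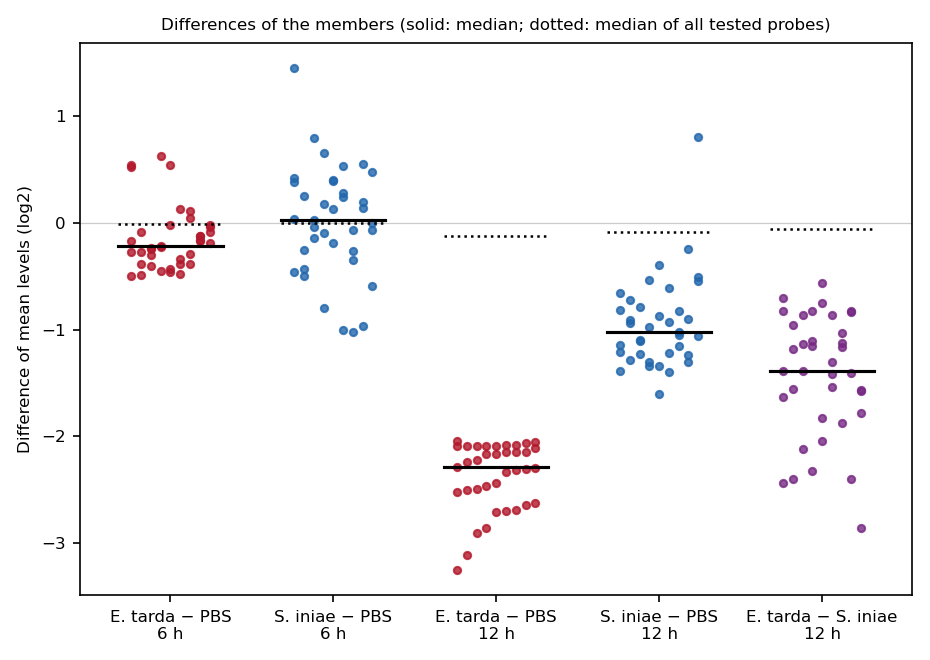
Differences of mean log2 levels for the 37 members in 5 comparisons, 1 point per member, with the median of the members (solid) and of all 11066 tested probes (dotted). The members centre on -0.22 and 0.03 at 6 h, at 12 h on -2.29 for E. tarda FKC and on -1.02 for S. iniae FKC, and on -1.38 between the preparations.

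The S. iniae arrays of 6 h are the only ones that did not enter the choice of members, and their comparison with PBS was tested across all probes, though its PBS arrays did enter. Of the 37 members 0 were called by limma at an adjusted p under 0.05, against 1.59% of the tested probes. At an unadjusted limma p under 0.05 there were 5, against 13.8%. The differences ran from -1.02 to 1.46 with a median of 0.03, against -0.003 over all tested probes, and 18 members were below 0. In the 10 members above the level of 0 in PBS at 12 h the median was -0.26, and 8 were below 0. In the other 27 it was 0.17, and 10 were below 0. This split was not tested. The S. iniae arrays lay below all PBS arrays in 4 members and above them in 3, against 7.4% and 8.78% of the tested probes. The SE of a member had a median of 0.30, and the 95% interval stayed within 2-fold, from -1 to 1, in 16 members, while in 21 it took in a 2-fold difference. These SEs pool the spread of all groups, including the E. tarda arrays of 12 h that chose the members. On those arrays the median SD was 0.55 in the members, against 0.35 over all tested probes. Fitted on the 2 compared groups alone, 0 members were called, against 0.307% of the tested probes. Array weights called 3 members, against 5.83% of all probes tested in that setting, and normexp with quantile normalization 2, against 7.27%. A call of 1 member came from eBayes with trend and robust, against 1.55%, and of 1 of 16 from the filter for detection on all arrays, against 1.93%.

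The smallest adjusted p belonged to JFC01489_2, which read 5.79, 5.99 and 6.27 at 6 h after S. iniae FKC and 7.43, 6.85, 6.96 and 6.82 with PBS. The arrays did not overlap, and the difference was -1.0 (SE 0.27, limma adjusted p = 0.0716). JFC01489_3 differed by -0.97 (SE 0.30, limma adjusted p = 0.132) and JFC02123_1 by -0.79 (SE 0.30, limma adjusted p = 0.232). After E. tarda FKC at 6 h the differences of these 3 were -0.48, -0.16 and -0.23. None of the 3 passed the test, and the difference between preparations at 6 h was not tested for them, because the E. tarda arrays entered the rule. JFC01489_2 was called by array weights (limma adjusted p = 0.00832), by eBayes with trend and robust (0.0452) and among probes detected on all arrays (0.0475). Over all 18 alternatives its limma adjusted p ran from 0.00832 to 0.378, and 3 of them called it. JFC01489_3 was called with array weights (-1.05, limma adjusted p = 0.0155, over all alternatives up to 0.298), and JFC02123_1 with normexp and quantile normalization (-1.12, limma adjusted p = 0.0230, up to 0.463).

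The 2 members with the highest difference at 6 h after S. iniae FKC, among those detected on all arrays of both groups, were CUST_8451_PI426483990 (JFC16100_1_code) and CUST_10179_PI426483990 (JFC05104_1_code). JFC16100_1 read -1.91, -1.03 and -1.16 after S. iniae FKC and -2.54, -1.32, -3.05 and -1.75 with PBS. These overlapped, with a difference of 0.80 (SE 0.41, limma adjusted p = 0.403) and a 95% interval of -0.06 to 1.65. JFC05104_1, the dimmest member, read -2.65, -2.75 and -3.26 after S. iniae FKC and -3.44, -3.60, -3.65 and -3.51 with PBS. All 3 S. iniae arrays were higher, by 0.66 (SE 0.22, limma adjusted p = 0.162, 95% interval 0.20 to 1.12), and it did not pass the test. It read -3.11, -2.69 and -2.96 after E. tarda FKC at 6 h, also above all PBS arrays. At 12 h it was not well above background on any of the 4 E. tarda arrays, and PBS was at least 1.79-fold higher by the approximate bound given above.

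**Figure D5:**
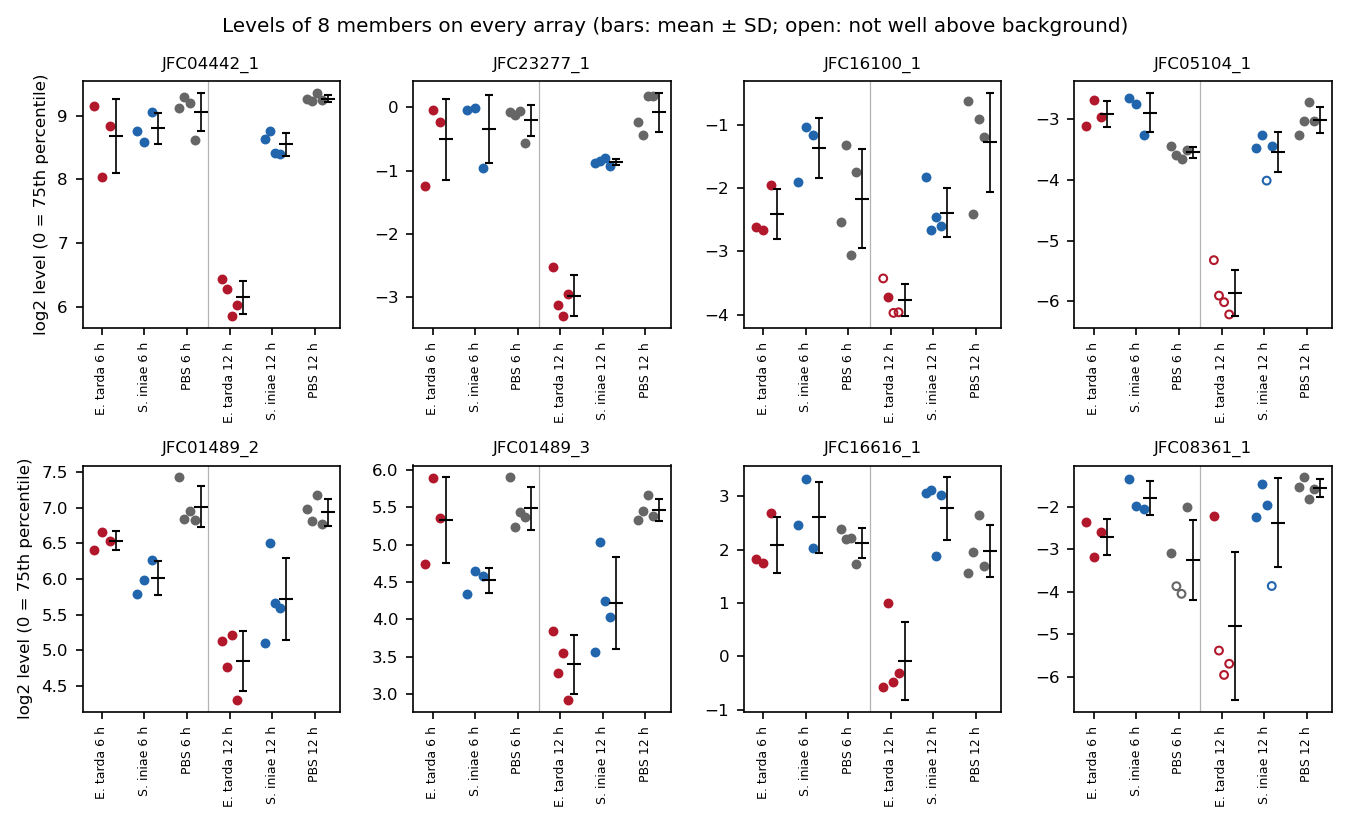
Log2 level of 8 members on every array, with mean and SD beside the points (n = 3 for both FKC groups of 6 h, n = 4 for the others). Open points were not well above background. In each panel the E. tarda group of 12 h has the lowest mean, while the distance of S. iniae FKC from PBS at 12 h varies, from -1.24 in JFC01489_3 to 0.81 in JFC16616_1.

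In PBS itself the members were slightly higher at 12 h than at 6 h. The difference had a median of 0.13 and a range of -0.43 to 1.71, against -0.02 over all tested probes, and 27 of 37 were above 0. Both groups were used in the choice, and a high PBS level at 12 h favours membership. On slide 3 the PBS arrays of 6 h lay in row 1 and those of 12 h in row 2. Row and time therefore cannot be told apart in PBS. The 6 spike-in probes differed between these times by -0.25 to -0.09, with a median of -0.21. Set against the PBS arrays of 6 h instead, E. tarda FKC at 12 h was lower in every member, by -2.91 to -0.45 with a median of -2.10, and 23 members were at -2 or less and 34 at -1 or less. In 4 members, named here after their values were seen, PBS was higher at 12 h by 1 or more. They were JFC13800_1_code, JFC08361_1_code, JFC09634_1_code and JFC14884_1_code, at 1.71, 1.69, 1.36 and 1.15, and E. tarda FKC at 12 h differed from PBS of 6 h by -0.45, -1.56, -0.73 and -0.96 in them. JFC09634_1 read -1.18, 0.61, -2.41 and -2.24 in PBS at 12 h, so that replicate 2, the highest array, carried much of its difference, against -2.57, -2.94, -2.55 and -2.59 in PBS at 6 h. Its membership rests on the same array. Without PBS replicate 2 of 12 h, 36 of the 37 members met the rule, all but JFC09634_1.

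JFC08361_1 (CUST_11387_PI426483990) had the largest difference of all members, and it rests on dim spots. At 12 h it read -2.23, -5.39, -5.96 and -5.70 with E. tarda FKC, -2.24, -1.46, -1.96 and -3.87 with S. iniae FKC, and -1.55, -1.30, -1.83 and -1.60 with PBS. Replicate 1 was the only E. tarda array well above background, and it lay within the range of S. iniae FKC. In PBS at 6 h it read -3.10, -3.87, -4.05 and -2.0, with 2 of 4 arrays well above background. JFC13800_1 (CUST_13750_PI426483990) was the 1 member whose E. tarda arrays overlapped PBS at 12 h, at -0.83, 0.84, -1.04 and -1.14 against 2.34, -0.24, 2.48 and 1.88, where PBS replicate 2 lay low.

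The same limit at 12 h was met by 125 JFC probes that were already below -0.5 at 6 h after E. tarda FKC and by 2 that were above 0.74. These share all their arrays with the members, so the values stand side by side without a test. The median difference after S. iniae FKC at 6 h was 0.03 in the members and -0.31 in the 125, and the share below 0 was 48.6% and 81.6%. The PBS arrays of 6 h enter both this difference and the cut between the sets, so the cut itself favours lower values in the 125. At 12 h the medians were -1.02 and -1.12 after S. iniae FKC and -2.29 and -2.52 after E. tarda FKC. The members were dimmer in PBS at 12 h, with a median level of -1.14 against -0.05. Among the members, the median at 6 h after S. iniae FKC was -0.26 in the 10 brighter and 0.17 in the 27 dimmer ones. Well above background on all E. tarda arrays of 12 h were 16 of the 37 members and 53 of the 125, a similar share.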

How the data were processed

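The authors' scanner files give the intensity of each spot. Per the file headers they were read with Agilent Feature Extraction 10.7.3.1, which subtracts background and detrends within an array, while the submitters' processing notes name version 9.5.3.1. The authors' deposited table holds log2 values. Set against the scanner files its values matched the scaling used here after subtraction of the PBS median at each time, with 99.99% within 0.1, and column medians of -0.27 to 0.03. It served as an alternative.

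Control spots and flagged spots were left out, 4 to 62 on an array, none of them a member's, and 0 spots were saturated. Spots of a probe were averaged. Members have 1 spot each. Probes well above background on at least 3 arrays were fitted with limma 3.58.1 in R 4.3.3, with 1 mean per group, 16 residual degrees of freedom and Benjamini-Hochberg adjustment over all 11066 probes. The fit was also run on simulated arrays with independent normal noise and no slide effect, and its recovery of changes is not reported here. The slide was read from the headers, and each group lies on 1 slide, so no slide term could be fitted. The 75th percentile of the signal was 209 to 470.

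The members and lists were chosen with earlier results of these data known. Named were the 2 members with the largest difference among those measured on all E. tarda and PBS arrays of 12 h and the 2 with the highest difference at 6 h after S. iniae FKC among members detected on every array of that group and of PBS at 6 h. Further contigs named in the text, and the pairwise correlations, were chosen after their values were seen. Lists of cell type markers were not used, since 0 names could be matched.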

Additional observations from a re-analysis of the deposited data

Results flagged for a closer look

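In 5 of 44 groups of 4 arrays 1 array lay far from the rest, by a gap above 0.829 of the group's range. The groups are those of the median of the members and of 10 of the members described by array, of which 6 were chosen after their values were seen. JFC09634_1, whose PBS arrays are also given above, was not among these 10 and was not screened. The chance rate of about 1 in 20 therefore cannot be set against this count. For CUST_5681_PI426483990 (JFC23277_1) PBS replicate 4 of 6 h lay at -0.57, with the nearest array at -0.11. For CUST_11387_PI426483990 (JFC08361_1) E. tarda FKC replicate 1 of 12 h lay at -2.23, with the others at -5.39 or less. E. tarda FKC replicate 2 of 12 h stood high in both CUST_13750_PI426483990 (JFC13800_1), at 0.84 with the nearest at -0.83, and CUST_130_PI426483990 (JFC16616_1), at 1.01 with the nearest at -0.31. In CUST_130_PI426483990 S. iniae FKC replicate 3 of 12 h lay at 1.89, below the nearest at 3.02.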

How the results depend on the processing

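The number of probes that met the rule rested on the processing and on the limit. It was 8 after normexp with quantile normalization (5 of them members), 24 with arrays scaled to their median (all 24 members), 111 and 10 with the limit at 12 h set to -1.5 and -2.5, and 86 without the demand for detection. Leaving out each array gave 31 to 51, with 28 to 37 of the members among them. With normexp and quantile normalization, run from the median signals of spot and background, the median differences were smaller. They were -1.17 for E. tarda FKC at 12 h, -0.51 for S. iniae FKC at 12 h and -0.62 between them. With PBS arrays of both times as the control, chosen after seeing the data, the E. tarda difference was -2.14. Leaving out each array gave medians at 12 h of -2.42 to -2.22 (E. tarda FKC), -1.06 to -0.96 (S. iniae FKC) and -1.42 to -1.23 (between them). At 6 h they were -0.34 to -0.10 (E. tarda FKC) and -0.07 to 0.10 (S. iniae FKC), and PBS over time gave 0.10 to 0.21. The count of members called at 6 h after S. iniae FKC was 0 and became 2 with normexp and quantile normalization (7.27% of all probes called), 1 with detection on all arrays, where 16 members remained in the fit (1.93%), 1 with eBayes with trend and robust (1.55%), and 3 with array weights (5.83%), against 1.59% of all probes in the reported fit. It was 0 without each of the 7 arrays of the 2 compared groups in turn. Leaving out the arrays of the other groups 1 at a time was not run for this count. It was also 0 with a replicate block. Deviations of S. iniae FKC and PBS arrays with the same number, however, correlated at only -0.07 to 0.08 over 3 pairs. Over all probes the number called was 176 and ranged from 34 to 805. The difference of CUST_5681_PI426483990 at 6 h after S. iniae FKC was -0.30 to 0.17 with each array of the 2 compared groups left out, the highest without S. iniae replicate 3. CUST_10179_PI426483990 was called with array weights (0.68, limma adjusted p = 0.0351). The counts of members lower without overlap at 12 h when E. tarda replicate 1 is left out, 36 against PBS and 29 against S. iniae FKC, were added after seeing the data. The causes were not tested. The slide as a block was not run. Dim signals limit 21 members, which had at least 1 E. tarda array of 12 h not well above background.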

Other observations

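Of the 666 pairs of members 10 had deviations from the group means that correlated above 0.7 over the 22 arrays, which every pair shares. Outside JFC01489 and JFC02123 the closest pair was JFC08741_1_code with JFC03854_1_code, at 0.894, with neither of them on a shared contig. The members were spread over the array, from row 2 to row 165 of 192 and from column 1 to column 80 of 82, and the closest pair lay 3 spots apart.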
